A study of Mus musculus with 4 samples.

Results

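The cytokines and receptors described here are the 10 genes Il1a, Il1b, Il1rn, Il1r1, Il6, Il6ra, Il10, Il18, Tnf and Tgfb1, measured in the spinal cord of mice with an injured sciatic nerve. They were chosen by name: every probe whose annotated gene name equalled one of the 10 symbols was taken, which gave 10 probes, 1 for each gene, of the 39429 probes and 30222 gene names on the array. All mice were male ICR mice, an outbred stock, 5 to 6 weeks old, and all of them had undergone partial sciatic nerve ligation (PSL) of the right hindlimb, so no unligated animal stands beside them. In sham+PSL mice the adrenal operation was a sham, and in ADX+PSL mice both adrenal glands had been removed and saline was given to drink. RNA came from spinal slices of lumbar segments L4 to L5, taken on day 7 after injury at zeitgeber time (ZT, hours after lights on) 10 in the late light phase or 22 in the late dark phase. There was 1 array for each of the 4 conditions (sham+PSL ZT10, sham+PSL ZT22, ADX+PSL ZT10 and ADX+PSL ZT22). The number of mice behind each RNA and the side of the cord are not given in the sources used here. The comparisons ask whether the transcripts of these cytokines and receptors differed between the times when circulating glucocorticoid peaked and declined in sham+PSL mice, and whether removal of the adrenals altered them.

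Nerve injury activates glial and immune cells in the spinal cord, which release cytokines that act on neurons and on other glia and can lower pain thresholds. The IL-1 system holds a pair of agonists, IL-1α and IL-1β, a receptor that signals, and a natural antagonist that occupies that receptor. IL-6 acts through its own receptor chain together with a shared signalling chain, TNF through a pair of receptors, and IL-10 and TGF-β1 restrain inflammation in many settings. Glucocorticoids are well known to repress the transcription of many inflammatory cytokines and are used as drugs for that purpose.

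The level of a probe is the authors' intensity, quantile-normalized over the 4 arrays, in arbitrary units. Probes bind with different strength, so a level was compared between arrays and never between genes. A probe was taken as well above background on an array when the image software flagged more than 5 of its 10 spots there, or its only spot. The lowest level that carried the flag was 14.9 on the sham+PSL ZT10 array, 18.4 on the sham+PSL ZT22 array, 12.8 on the ADX+PSL ZT10 array and 22.2 on the ADX+PSL ZT22 array. Between 65.1% and 70.1% of all probes were well above background on an array, and 0 spots were saturated. With 1 array in a condition, no test between single conditions was possible, and each ratio below includes any difference between mice and between slices. The spot error given with a log2 ratio is the image software's own error of the spots and covers their measurement only. A ratio was called when it was 2 or more, or 0.5 or less, and the brighter array was well above background.

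Sequences are shown for the genes on which the results turn. The probes for Tgfb1 and Il18, which gave signal on all 4 arrays, had the following 60 bases, in the sense of the transcript. The Tgfb1 probe lies at chr7:26489877-26489936 on the plus strand and the Il18 probe at chr9:50389761-50389820 on the plus strand, both in mm9. The deposited annotation does not say which exon a probe lies in.
Tgfb1 probe: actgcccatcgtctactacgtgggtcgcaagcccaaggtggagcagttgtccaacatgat
Il18 probe: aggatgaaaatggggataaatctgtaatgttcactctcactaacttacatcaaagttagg

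Among the genes well above background on 1 or more arrays, Il1b and Il6 had the largest ratios between arrays, and the 250 bases before their start sites, from RefSeq on GRCm38.p6, are shown for their known regulatory motifs. The Il6 window is chr5:30012864-30013113 on the plus strand and the Il1b window is chr2:129371140-129371389 on the minus strand. Capitals mark matches to the motifs searched, on either strand.
Il6 promoter: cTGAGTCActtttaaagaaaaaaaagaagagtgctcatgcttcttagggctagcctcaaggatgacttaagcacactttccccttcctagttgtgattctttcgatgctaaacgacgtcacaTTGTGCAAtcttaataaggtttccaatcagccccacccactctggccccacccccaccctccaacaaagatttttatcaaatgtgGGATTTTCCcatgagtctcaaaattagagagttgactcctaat
Il1b promoter: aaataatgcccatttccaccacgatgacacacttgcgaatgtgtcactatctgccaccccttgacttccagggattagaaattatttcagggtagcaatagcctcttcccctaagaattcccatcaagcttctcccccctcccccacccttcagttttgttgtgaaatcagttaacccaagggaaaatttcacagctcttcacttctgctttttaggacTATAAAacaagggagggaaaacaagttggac

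Of the 10 genes, 9 had a promoter in the RefSeq table, in 12 windows. The Il6 window held the NF-κB motif GGANTTTCC, the C/EBP motif TTGNGCAA and the AP-1 motif TGANTCA, which do not overlap each other. Of all 32851 promoter windows, 1.07% held the first, 2.61% the second and 6.75% the last. The AP-1 motif was also present in the windows of Il1a and Il1rn. The TATA box TATAAA, held by 12.4% of all windows, was found on the coding strand for Il1b 31 to 26 bases before the start, and within 32 bases of the start for Il1a and Tnf. In the Il18 window the same letters stood on the opposite strand, 175 to 170 bases before the start. The glucocorticoid receptor palindrome GNACANNNTGTNC, held by 0.387% of all windows, was found in 0 of the 12 windows, and its hexamer AGAACA, held by 16.1%, in those of Il1r1 and Il18. A match describes the letters of the window and is not evidence of binding.

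Of the 10 genes, 4 were well above background on all 4 arrays (Il1r1, Il6ra, Il18 and Tgfb1), 2 on some arrays only (Il6 and Il1b), and 4 on no array (Il1a, Il1rn, Il10 and Tnf). For the last group there is only a bound: none was well above background, although some of their spots carried a weaker flag of differing from background. Of the 10 probes, 4, for Il1b, Il10, Tnf and Tgfb1, were printed 10 times on each array, and the other 6 were printed once.

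**Figure D1:**
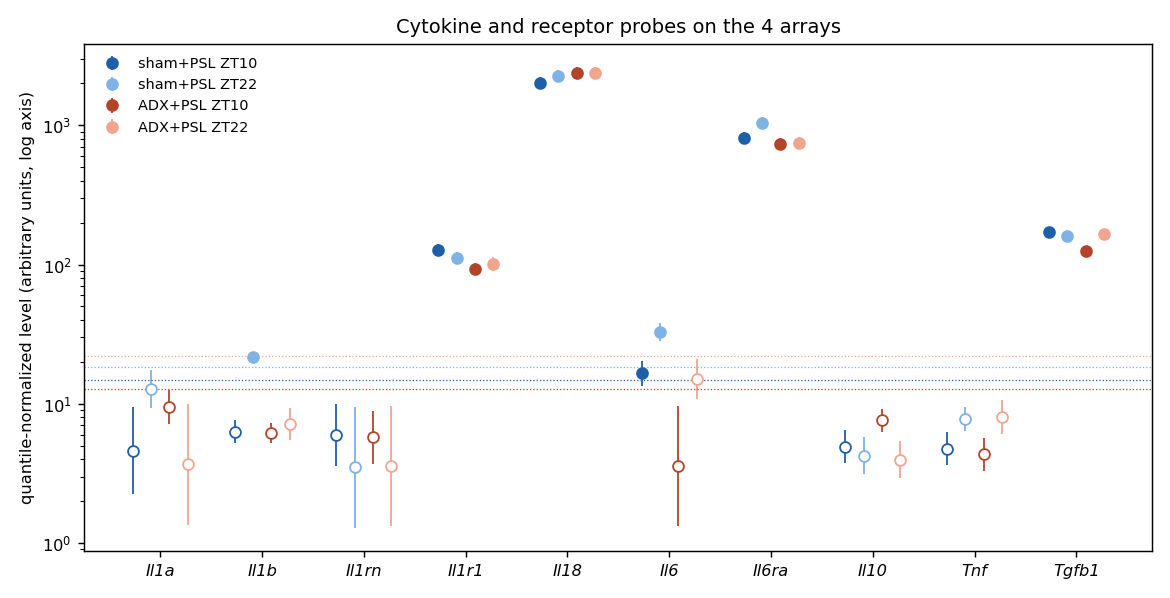
Level of each of the 10 probes on the 4 arrays (vertical axis, arbitrary units, log scale), with bars for the spot error; filled points are well above background, open points are not, and each dotted line is the lowest level well above background on the array of that colour. Il1r1, Il18, Il6ra and Tgfb1 lie far above the lines on every array, Il6 reaches 32.7 and Il1b 21.6 on the sham+PSL ZT22 array, and Il1a, Il1rn, Il10 and Tnf lie below the lines throughout.

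Among the ligands of the IL-1 receptor, Il1b was well above background on 1 array alone, that of sham+PSL ZT22. Il1b encodes IL-1β, a cytokine that is released after cleavage by caspase-1 and that sensitizes pain pathways. Its probe lies at chr2:129190347-129190406 (mm9, minus strand). The level of Il1b in sham+PSL mice was 6.32 at ZT10 and 21.6 at ZT22, and in ADX+PSL mice it was 6.20 at ZT10 and 7.13 at ZT22. Thus 1 array stood apart and the other 3 lay close together. Signals of single spots, here and below, are before normalization between arrays and so not on the scale of the levels. The 10 spots of Il1b ranged from 16.5 to 25.1, with a median of 20.3, on the sham+PSL ZT22 array, where 7 of them were flagged. On the remaining arrays 29 of 30 spots lay below the lowest of these. The exception was a single spot at 21.2 on the ADX+PSL ZT10 array, and the next highest was 11.9. The weaker flag of differing from background was on 9, 9 and 6 of the 10 spots on the sham+PSL ZT10, ADX+PSL ZT10 and ADX+PSL ZT22 arrays.

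In sham+PSL, the log2 ratio of Il1b at ZT10 against ZT22 was -1.77 ± 0.29 (spot error), and the level at ZT22 was at least 1.45-fold higher when the ZT10 level is set to the lowest level well above background there. Of the 6 genes that could be called in this comparison, Il1b was the one called lower at ZT10, and 0 were called higher. Over all 27611 probes that could be called, 2.51% were called lower and 2.73% higher. At ZT22, the log2 ratio of Il1b in ADX+PSL against sham+PSL was -1.60 ± 0.39. No lower bound can be given for this ratio, because the limit of 22.2 on the ADX+PSL ZT22 array is above the bright level. The Il1b spots came from 1 RNA, so they describe the measurement and not the mice. With normexp background correction, in which an offset of 50 is added to every signal, the log2 ratios were -0.28 and -0.31, and neither passed 2-fold.

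**Figure D2:**
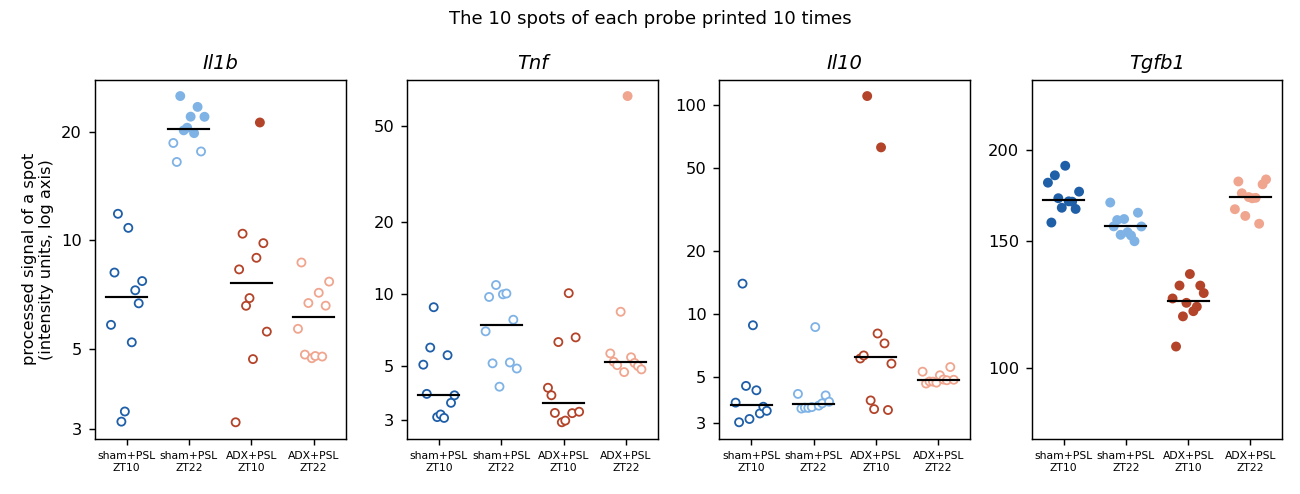
Processed signal of each of the 10 spots (vertical axes, intensity units before normalization between arrays, log scale, a different range in each panel) of the probes for Il1b, Tnf, Il10 and Tgfb1 on the 4 arrays; filled points were flagged well above background and black lines are medians. The 10 Il1b spots of sham+PSL ZT22 lie at 16.5 to 25.1 against 1 of 30 spots elsewhere in that range, and the Tgfb1 spots of ADX+PSL ZT10 lie below all others.

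Il1a, which encodes IL-1α, and Il1rn, which encodes the IL-1 receptor antagonist, were well above background on no array. The level of Il1a was 4.61, 12.8, 9.46 and 3.68 on the arrays of sham+PSL ZT10, sham+PSL ZT22, ADX+PSL ZT10 and ADX+PSL ZT22, from 1 spot at chr2:129125994-129126053 (mm9, minus strand). The level of Il1rn was 5.94, 3.49, 5.75 and 3.56 in the same order, from 1 spot at chr2:24205094-24205153 (mm9, plus strand). Differences among such levels were not detectable with these arrays: the spot error of the log2 ratios of Il1a was between 1.11 and 1.51.

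Il1r1, the receptor through which both agonists signal, was measured on every array by 1 spot at chr1:40372667-40372726 (mm9, plus strand). Its level in sham+PSL mice was 128 at ZT10 and 111 at ZT22, and in ADX+PSL mice it was 92.7 at ZT10 and 101 at ZT22. Both ADX+PSL levels were lower than both sham+PSL levels, and the neighbours 101 and 111 differed by less than their spot error. The log2 ratio of ADX+PSL against sham+PSL was -0.46 ± 0.21 at ZT10 and -0.14 ± 0.22 at ZT22. The other chains of the IL-1 receptor were Il1rap, the accessory chain needed for signalling, at 105, 111, 131 and 106, and Il1r2, a decoy receptor, at 46.0, 38.7, 29.5 and 28.9 in the order of arrays used above. Il1r2, like Il1r1, was lower on both ADX+PSL arrays, and Il1rap was not.

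Il18, a cytokine of the IL-1 family that is also matured by caspase-1, was measured on every array by 1 spot. Its level in sham+PSL mice was 2023 at ZT10 and 2255 at ZT22, and in ADX+PSL mice it was 2371 at ZT10 and 2363 at ZT22. Both ADX+PSL levels were higher than both sham+PSL levels. The log2 ratio of ADX+PSL against sham+PSL was 0.23 ± 0.20 at ZT10 and 0.07 ± 0.20 at ZT22, so neither exceeded 2 spot errors. Il18r1 and Il18rap, the receptor chains for IL-18, were well above background on no array. Il18bp, which binds and neutralizes IL-18, was at 112, 110, 115 and 117.

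Il6 was called lower in ADX+PSL than in sham+PSL at both times. It encodes IL-6, a cytokine of acute inflammation that rises in nervous tissue after nerve injury. The level of Il6 in sham+PSL mice was 16.6 at ZT10 and 32.7 at ZT22, and in ADX+PSL mice it was 3.58 at ZT10 and 15.0 at ZT22. Its probe, 1 spot at chr5:30346367-30346426 (mm9, plus strand), was well above background in sham+PSL at both times and in ADX+PSL at neither. The weaker flag of differing from background was on its spot in ADX+PSL at ZT22 and not at ZT10. Both ADX+PSL levels were below both sham+PSL levels, although 15.0 in ADX+PSL at ZT22 and 16.6 in sham+PSL at ZT10 are close, and the flag separates them because the limit differs between arrays.

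At ZT10, the log2 ratio of Il6 in ADX+PSL against sham+PSL was -2.21 ± 1.47, and the sham+PSL level was at least 1.29-fold higher. At ZT22 the log2 ratio was -1.12 ± 0.53, and the sham+PSL level was at least 1.47-fold higher. Within sham+PSL the log2 ratio of ZT10 against ZT22 was -0.98 ± 0.37, a ratio of 0.507 that narrowly missed the 2-fold limit and passed it when the arrays were shifted by their 75th percentile instead. In ADX+PSL neither array was well above background. At ZT10, Il6 was the 1 gene called of the 5 that could be called, where 2.97% of all probes were called lower and 2.63% higher. At ZT22 Il6 and Il1b were the 2 genes called lower of 6 and 0 were called higher, where 2.73% of all probes were called lower and 2.08% higher. With normexp the log2 ratios of Il6 were -0.47 at ZT10 and -0.38 at ZT22, and neither passed 2-fold.

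Il6ra, the chain that binds IL-6, was measured on every array by 1 spot at chr3:89674054-89674113 (mm9, minus strand). Its level in sham+PSL mice was 806 at ZT10 and 1039 at ZT22, and in ADX+PSL mice it was 737 at ZT10 and 749 at ZT22. The sham+PSL ZT22 array was the highest, and both ADX+PSL levels were below both sham+PSL levels, although the neighbours 749 and 806 differed by less than their spot error. The log2 ratio of ADX+PSL against sham+PSL was -0.47 ± 0.20 at ZT22 and -0.13 ± 0.20 at ZT10. The shared signalling chain Il6st showed the same order, at 1889, 2021, 1633 and 1756. Socs3, an inhibitor of signalling that IL-6 induces, was at 521, 670, 336 and 473.

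Il10, which encodes an anti-inflammatory cytokine, and Tnf, which encodes tumour necrosis factor, were well above background on no array, although each was read from 10 spots. The level of Il10 was 4.93, 4.25, 7.63 and 3.98 on the arrays of sham+PSL ZT10, sham+PSL ZT22, ADX+PSL ZT10 and ADX+PSL ZT22 (probe at chr1:132920943-132921002, mm9, plus strand). The ADX+PSL ZT10 level contained 2 spots at 110.5 and 62.7. The medians over 10 spots, before normalization between arrays, were 3.67, 3.68, 6.21 and 4.82, so that this array was highest by that median too. The weaker flag of differing from background was on 9 of 10 Il10 spots of ADX+PSL ZT10, against 4, 2 and 2 on the arrays of sham+PSL ZT10, sham+PSL ZT22 and ADX+PSL ZT22. The level of Tnf was 4.75, 7.76, 4.33 and 8.06 in the same order (probe at chr17:35336795-35336854, mm9, minus strand). Its value on the ADX+PSL ZT22 array contained 1 spot at 66.8, and the medians over 10 spots, before normalization, were 3.81, 7.40, 3.51 and 5.19. On the sham+PSL ZT22 array all 10 Tnf spots carried this weaker flag, against 4 or 5 of 10 on each other array. Single bright spots were not unusual on these arrays: of the 399 probes printed 10 times, between 17 and 24 had a spot over 4-fold their median on an array.

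Tgfb1 encodes TGF-β1, which is held latent in the matrix until activated and which restrains microglia. It was flagged on all 10 spots of every array, and its level in sham+PSL mice was 172 at ZT10 and 161 at ZT22, and in ADX+PSL mice it was 126 at ZT10 and 165 at ZT22. Before normalization between arrays, the 10 spots ranged from 159 to 190, from 150 to 169, from 107.2 to 135 and from 158 to 182 in the same order. The ADX+PSL ZT10 spots thus did not overlap those of any other array. The log2 ratio of ADX+PSL against sham+PSL was -0.45 ± 0.07 at ZT10 and 0.03 ± 0.07 at ZT22. In ADX+PSL the log2 ratio of ZT10 against ZT22 was -0.39 ± 0.07, and in sham+PSL it was 0.09 ± 0.07. The lower level was therefore seen on 1 array and not on both arrays of an operation. None of these ratios approached 2-fold, and the difference lay beyond the spread of spots of 1 RNA, whereas the spread between mice is unknown.

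**Figure D3:**
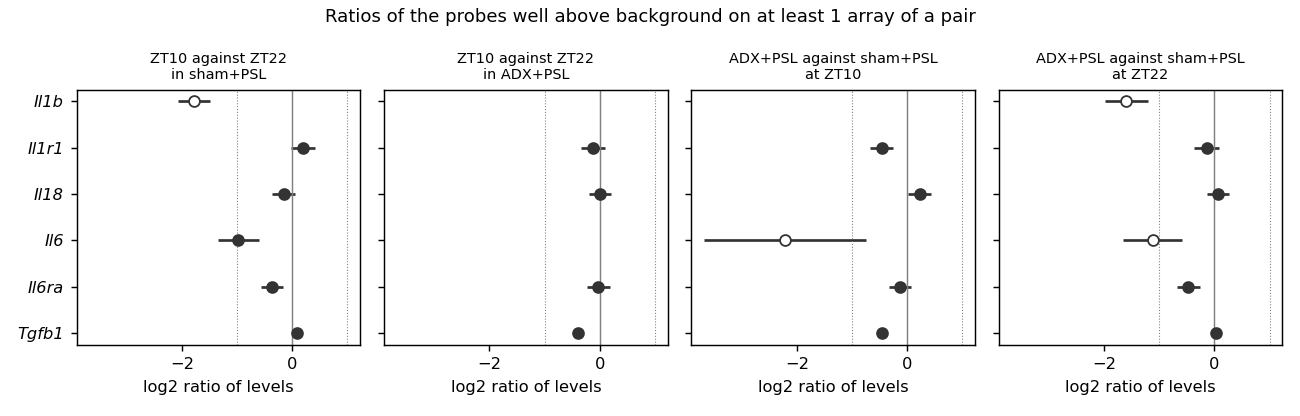
Log2 ratio of the levels in each of the 4 comparisons (horizontal axes) for the 6 genes that were well above background in at least 1 of the pair, with bars for the spot error; filled points were well above background on both arrays, open points on 1, and dotted lines mark 2-fold. Il1b lies at -1.77 and -1.60 in the comparisons that hold the sham+PSL ZT22 array, Il6 lies at -0.98, -2.21 and -1.12, and the remaining ratios lie between -0.47 and 0.23.

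Across the 4 comparisons, the genes measured on both arrays had a median log2 ratio of -0.16 (n = 5) for ZT10 against ZT22 in sham+PSL, -0.07 (n = 4) for the same in ADX+PSL, -0.29 (n = 4) for ADX+PSL against sham+PSL at ZT10 and -0.06 (n = 4) at ZT22. The corresponding medians over all probes lay between -0.00 and 0.01. In ADX+PSL, 0 of the 4 genes that could be called passed 2-fold between ZT10 and ZT22, where 2.43% of all probes were called higher and 1.93% lower. Of the 6 genes that 1 or more arrays measured well above background, both ADX+PSL levels were lower than both sham+PSL levels for 3 (Il1r1, Il6 and Il6ra), against 16.4% of all 28843 such probes, and higher for 1 (Il18), against 19%. The highest level was on the sham+PSL ZT22 array for 3 of the 6 (Il1b, Il6 and Il6ra), against 24.3% of all probes. Il1b and Il6 entered these counts through the arrays where they were high, so nothing is read from them. The lowest level was on the ADX+PSL ZT10 array for 5 of the 6, all but Il18, against 21.4% of all probes. For Il1b this rested on 6.20 against 6.32, and under other scalings of the arrays the number lay between 3 and 5. Of the 4 genes well above background on all arrays, 2 were lower on both ADX+PSL arrays (Il1r1 and Il6ra), 1 was highest on the sham+PSL ZT22 array (Il6ra) and 3 were lowest on the ADX+PSL ZT10 array (Il1r1, Il6ra and Tgfb1). The shares of all 25009 probes with signal throughout were 16.1%, 24.4% and 21.8%.

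A fit of operation and time point together, which treats as error the part of the time difference that is not shared by both operations and leaves 1 residual degree of freedom, was made over all 28843 probes with limma. It called 0% of all probes for operation and 0% for time point after Benjamini-Hochberg adjustment, with 1803 and 1420 probes at an unadjusted p under 0.05. For the 4 genes measured on all arrays (Il1r1, Il6ra, Il18 and Tgfb1), the limma adjusted p lay between 0.843 and 0.984 over both factors. The largest of their fitted differences were those of Il1r1 and Il6ra between operations, each a log2 difference of -0.30 ± 0.15 (SE). No fitted difference is given for Il6 and Il1b, which entered the fit through the arrays where they were high and were not well above background on others.

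The other genes of these pathways were taken from 9 lists of ligands, receptors, processing enzymes and signalling components, of which 103 genes were on the array and 88 were well above background on at least 1 array. Between ZT10 and ZT22 in sham+PSL, 0 of 88 were called higher at ZT10 and 2 lower (Osmr and Rel). In ADX+PSL, 0 of 85 were higher and 1 lower (Il4ra). In ADX+PSL against sham+PSL, 0 of 86 were higher and 2 lower at ZT10 (Il1rl1 and Il4ra), and 1 of 88 was higher (Nfkbie) and 3 lower at ZT22 (Casp4, Rel and Icam1). Over all probes, 2.73% were called higher and 2.51% lower between times in sham+PSL, and 2.43% and 1.93% in ADX+PSL. Between operations these shares were 2.63% and 2.97% at ZT10, and 2.08% and 2.73% at ZT22. In all, 7 of the 88 genes passed 2-fold in any comparison, or 7.95%, and 2 of the 6 cytokines and receptors (Il1b and Il6), or 33.3%, beside 11.1% of all probes. A listed gene stands for its brightest probe, so these shares are not on an equal footing. In each call of Il1b and Il6 the dimmer array was not well above background. They could be called only through the arrays where they were high, so nothing is read from the 33.3%.

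Of the 7, Osmr, the receptor chain for oncostatin M, was at 183 (ZT10) and 391 (ZT22) in sham+PSL mice and at 274 (ZT10) and 238 (ZT22) in ADX+PSL mice. Casp4, a caspase that cleaves gasdermin D, was at 115, 208, 82.5 and 98.0 in the same order. Both had their highest level on the sham+PSL ZT22 array. So did Rel, an NF-κB subunit, which was at 103 there and at 6.76, 4.57 and 3.62 on the sham+PSL ZT10, ADX+PSL ZT10 and ADX+PSL ZT22 arrays. The Rel level at ZT22 in sham+PSL was at least 6.91-fold that at ZT10, but it came from 1 spot of 1 probe. Icam1, an adhesion molecule of inflamed vessels, was at 16.6, 24.6, 7.81 and 9.56, and of the 4 arrays only that of sham+PSL ZT22 measured it well above background. Osmr, Casp4, Rel and Icam1 were each called in a comparison that holds the sham+PSL ZT22 array. Nothing is therefore read from their being highest there.

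Nfkbie, an inhibitor of NF-κB, was at 270, 136, 231 and 289, lowest on the sham+PSL ZT22 array, which the comparison that called it holds. Il4ra, the receptor chain for IL-4 and IL-13, was at 111, 148, 51.7 and 119, lowest on the ADX+PSL ZT10 array, which both comparisons that called it hold. Il1rl1, the receptor for IL-33, was at 26.5, 24.5, 13.2 and 17.2 and lower on both ADX+PSL arrays, on neither of which it was well above background.

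**Figure D4:**
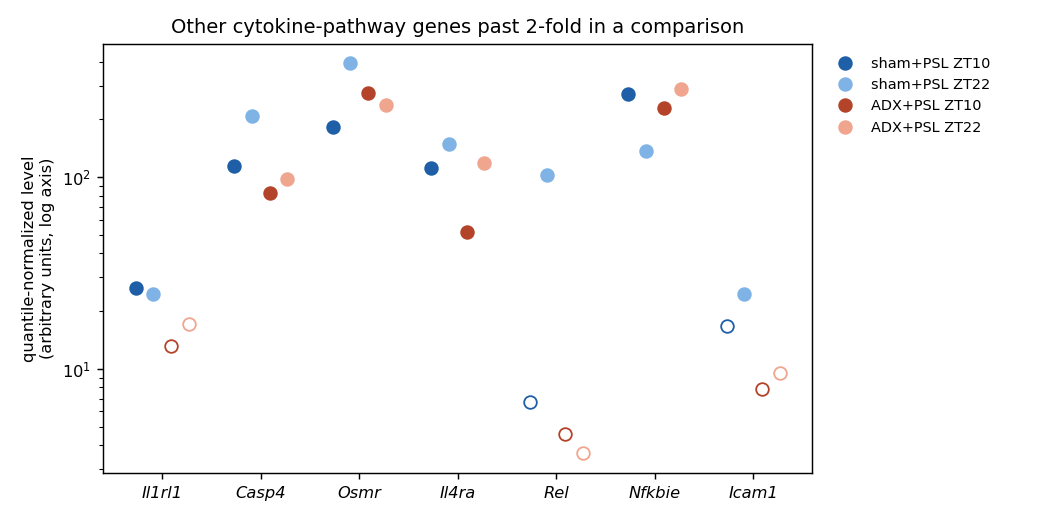
Level (vertical axis, arbitrary units, log scale) on the 4 arrays of the 7 other pathway genes that passed 2-fold in any comparison; filled points are well above background and open points are not. Casp4, Osmr, Rel, Il4ra and Icam1 are highest on the sham+PSL ZT22 array, where Nfkbie is lowest at 136. Each gene is shown because it was called in a comparison, so its extreme array partly follows from that choice.

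Smaller differences ran in 1 direction more often. Both ADX+PSL levels were lower than both sham+PSL levels for 31 of the 88 pathway genes, or 35.2%, and higher for 7, or 7.95%, where all probes gave 16.4% and 19%. Under the other scalings of the arrays and the median over spots the number lower lay between 26 and 31, with 12.2% to 16.4% of all probes. Of the 83 genes well above background on all 4 arrays, 28 were lower and 7 higher on both ADX+PSL arrays, or 33.7% and 8.43%. All 25009 probes with signal throughout gave 16.1% and 18.9%. The highest level was on the sham+PSL ZT22 array for 36 of the 88 genes, or 40.9%, against 24.3% of all probes. The lowest was on the ADX+PSL ZT10 array for 35, or 39.8%, against 21.4%. Without normalization between arrays these numbers were 28 and 45, against 15.3% and 27.8% of all probes. Genes of a pathway are not independent of each other, and the same 4 arrays underlie every gene, so these counts carry no test.

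The receptors that pair with IL-10 and TNF, whose own transcripts were near background, were measured on all arrays. Il10ra, the chain that binds IL-10, was at 343 (ZT10) and 416 (ZT22) in sham+PSL mice and at 307 (ZT10) and 338 (ZT22) in ADX+PSL mice. Its partner Il10rb was at 252, 261, 205 and 245 in the same order. Both chains were lower on both ADX+PSL arrays, although the ADX+PSL ZT22 level lay close to the sham+PSL ZT10 level in each case. Tnfrsf1a, the TNF receptor found on most cells, was at 1405, 1463, 1065 and 1065, a lower level on both ADX+PSL arrays with little difference between times. Tnfrsf1b, the TNF receptor of immune cells and microglia, was at 30.4, 45.8, 22.5 and 36.3, higher at ZT22 than at ZT10 in both operations.

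For 9 of the 11 TNF receptor and signalling genes the highest level was on the sham+PSL ZT22 array, and between 7 and 10 under the other scalings and the median over spots. The exceptions were Ripk1, a kinase below the TNF receptor, at 77.7, 77.0, 64.4 and 52.2, and Tradd, its adaptor, at 2069, 2053, 2157 and 2259. Over all probes 24.3% were highest on that array. Of the 9 lists, the TNF list had the highest share there. The number was 4 of 5 for the IL-10 list, 4 of 7 for the inflammasome and 6 of 13 for other IL-6 family genes. It was 4 of 10 for IL-1 and Toll signalling, 3 of 12 for NF-κB, 2 of 10 for induced mediators and 1 of 7 for other IL-1 family genes. Of the 11 TNF genes, 5 were lower and 1 was higher on both ADX+PSL arrays, beside 16.4% and 19% of all probes. Of these 11, 0 passed 2-fold in any comparison, beside 11.1%. Adam17, the protease that sheds TNF from the cell surface, was at 77.3, 134, 87.1 and 91.1.

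**Figure D5:**
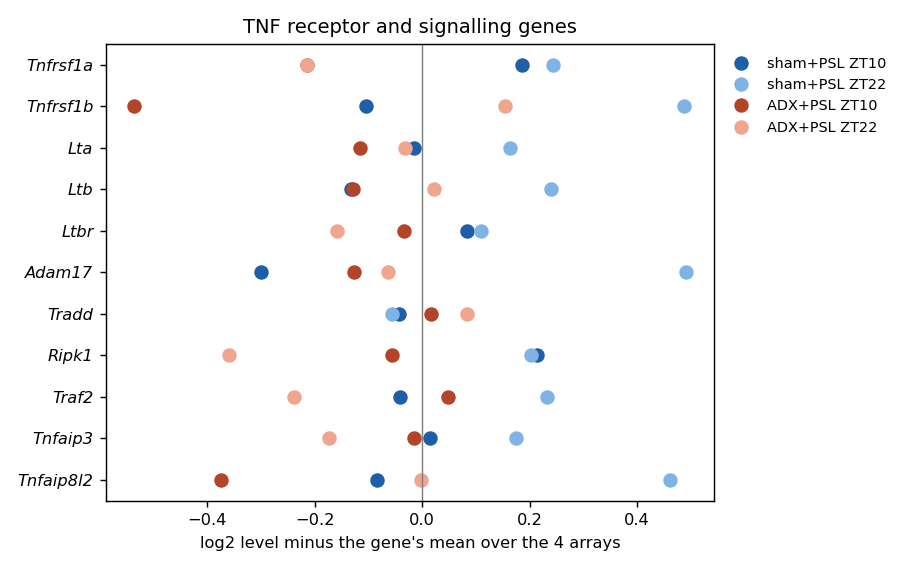
Log2 level minus the gene's mean over the 4 arrays (horizontal axis) for the 11 TNF receptor and signalling genes, with 1 point for each array and the line at 0 marking the mean. The sham+PSL ZT22 array is rightmost for 9 genes, the highest share among the 9 lists. Tnfrsf1a separates the arrays by operation, at 1405 and 1463 against 1065 and 1065.

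Among the receptors of TGF-β, Tgfbr1 was at 742, 1078, 799 and 856 and Tgfbr2, the chain that binds the ligand, at 1523, 1719, 1255 and 1286, both highest on the sham+PSL ZT22 array. That array held the highest level of 3 of the 13 TGF-β receptor and signalling genes, near the 24.3% of all probes. Of the 13 genes in that list, 5 were lower and 1 was higher on both ADX+PSL arrays, beside 16.4% and 19% of all probes. For the list the median log2 ratio of ADX+PSL against sham+PSL was -0.13 at ZT10 and -0.14 at ZT22. The ADX+PSL ZT10 array, where Tgfb1 was lowest, held the lowest level of 5 of the 13, beside 21.4% of all probes.

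The slices held several cell types whose markers differed between the arrays, and in bulk tissue fewer cells of a type cannot be told apart from less RNA per cell. Neuron, astrocyte and oligodendrocyte markers were well above background on all 4 arrays, in accord with the label of spinal cord. All 11 microglia markers were measured, 8 of them highest on the sham+PSL ZT22 array and 7 lowest on the ADX+PSL ZT10 array, beside 24.3% and 21.4% of all probes. Median log2 ratios of a list are over its markers well above background on both arrays of a pair. For microglia the median was -0.41 for ZT10 against ZT22 in sham+PSL and -0.25 in ADX+PSL. For ADX+PSL against sham+PSL it was -0.10 at ZT10 and -0.25 at ZT22. All 6 red blood cell markers were lowest on the sham+PSL ZT22 array, beside 27.9% of all probes. Their median for ZT10 against ZT22 in sham+PSL was 3.05. All 7 meningeal fibroblast markers were lower on both ADX+PSL arrays. Their median for ADX+PSL against sham+PSL was -2.41 at ZT10 and -1.62 at ZT22. Of the 6 border macrophage and monocyte markers 4 were measured, and 3 were lower on both ADX+PSL arrays, with medians of -1.66 and -0.64. Of the 5 Schwann cell markers, 4 were lower and 1 was higher on both ADX+PSL arrays, with medians of -0.68 and -0.73. All probes gave 16.4% lower and 19% higher. Of the 7 neutrophil markers 5 were measured, and 0 were lower on both ADX+PSL arrays. At ZT10, however, S100a8 and S100a9 were called lower in ADX+PSL than in sham+PSL, and 0 were called higher. Over all probes these shares were 2.97% and 2.63%. Between times in ADX+PSL, the same genes were called lower at ZT10 and Ly6g higher, beside 1.93% and 2.43% of all probes. Of the 5 T cell markers 2 were measured, both higher on both ADX+PSL arrays. Of the 5 endothelial markers 0 were lower and 0 higher on both. The part of any of these cells in the levels of the cytokines and receptors was not tested.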

How the data were processed

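Spinal RNA of 4 conditions was hybridized to 1 single-colour (Cy3) 60-base array each, all on 1 slide. The authors deposited spot intensities from Agilent Feature Extraction (version 9.5.1.1 in the labels, 10.7.1.1 in the file header) with flags, and a table of intensity values for each probe. That table holds quantile-normalized values on the linear scale (median 105.46 on each array) and was used as deposited. Its values ranked the probes as the geometric mean of their spots did. Only ranks were compared, so the scale on which the normalization was done was not tested. The study's methods describe it on log2 values. Each array had 43020 spots besides 1377 controls, and 399 probes were printed 10 times, with a median SD of log2 signals between spots of 0.044 to 0.060. The number of arrays limits the precision.

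Log2 ratios, calls and counts were computed with Python 3.11.15, numpy 2.4.6 and pandas 2.3.3, and the additive fit, tested on simulated data, with limma 3.58.1 in R 4.3.3, over probes that 1 or more arrays measured well above background. A gene of a list with several probes was represented by the one of the highest mean level. Text names all 10 genes, the receptors that pair with them, and list genes past 2-fold, at most 4 per list. Socs3, Adam17, Ripk1 and Tradd fall outside this rule and were chosen after their values were seen. Accessions of the 10 probes were matched to RefSeq symbols (10 of 10). Members and lists were chosen with earlier results of these data known. Alternatives were other normalizations (quantile on log2 processed signals, 75th percentile shift, none, normexp), filters, a 1.5-fold limit, an intensity trend, 1 factor alone, arrays left out, and, added after seeing the data, the median over spots and a flag on any spot.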

Additional observations from a re-analysis of the deposited data

Results flagged for a closer look

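For 3 genes measured on all 4 arrays the time points differed in opposite directions in sham+PSL and ADX+PSL. The log2 ratio of ZT10 against ZT22 in sham+PSL minus that in ADX+PSL was 0.48 for Tgfb1 (spot error 0.09), 0.32 for Il1r1 (spot error 0.31) and -0.16 for Il18 (spot error 0.29). With 1 array in a condition these differences between operations were not tested. For Il18 the ratio in ADX+PSL was near 0 on the log2 scale and changed sign under other scalings of the arrays.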

How the results depend on the processing

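The number of the 10 genes past 2-fold between ZT10 and ZT22 in sham+PSL, 1 as reported, was 2 after a 75th percentile shift (Il1b and Il6), 2 with a 1.5-fold limit (Il1b and Il6), 2 without a filter on low signals (Il1b and Il1a), and 0 with normexp or with both arrays required to be well above background. Without that filter it was 2 rather than 0 between times in ADX+PSL (Il1a and Il6) and 2 rather than 1 in ADX+PSL against sham+PSL at ZT10 (Il1a and Il6). In ADX+PSL against sham+PSL, the numbers of 1 at ZT10 and 2 at ZT22 became 0 and 0 with normexp, and 0 and 0 with both arrays required to be well above background. An offset of 50, added in normexp, shrinks ratios of low levels by construction, and the stricter filter removes Il1b and Il6 because their dimmer array is not well above background. Over all probes, normexp left 142 higher and 168 lower between times in sham+PSL, and the stricter filter left 221 and 294, of 753 and 693. Genes whose ADX+PSL and sham+PSL levels did not overlap numbered 4 of 6, beside 16.4% of all probes lower and 19% higher on both ADX+PSL arrays. Under other settings that held 6 genes the number was 4 or 5. It was 3 of 4 over genes well above background on all 4 arrays, and 4 of 8 with a flag on any spot. With 1 array left out the number lay between 4 and 6 of 6, 6 without ADX+PSL ZT22. There 1 array stands against 2, so levels fail to overlap more often by construction. No share of all probes stands beside that setting, and Il1b and Il6 entered it through the arrays where they were high. Nothing is therefore read from the numbers with 1 array left out. The additive fit called 0 of the 4 to 10 genes it held under each alternative, with a lowest limma adjusted p over them between 0.521 and 0.864 for operation and between 0.778 and 0.986 for time point, while over all probes it called 39 for operation and 14 for time point with an intensity trend, 10 and 9 with normexp, 13 and 11 over probes well above background on all 4 arrays, and 6 and 0 with 1 factor alone. The direction of the Il6ra and Il18 time ratios in ADX+PSL, and of the Tgfb1 ratio of ADX+PSL against sham+PSL at ZT22, changed with the setting, and their sizes as reported were near 0. Ratios of levels not well above background changed direction too: Il1b between times in ADX+PSL (-0.22 to 0.44) and between operations at ZT10 (-0.12 to 0.31), Tnf and Il1rn between operations at both times (Tnf to -0.76 at ZT22 by the median over spots), and Il10 between operations at ZT22. No paired analysis was possible because each condition had 1 array and so no numbered replicates to match across conditions; the additive fit holds the time point as its other factor. Signals near background limit what Il1a, Il1rn, Il10 and Tnf can show.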
